A study of Homo sapiens with 2 samples.

Results

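The genes described here are 9 members of the p53 pathway, measured in a cell line that makes no working p53: CDKN1A, MDM2, MDM4, ZMAT3, TIGAR, SESN1, GDF15, RRM2B and PHLDA3. They were taken by name, 1 row each, from a table of 36814 gene windows. The cells were K562, an established line from a chronic myelogenous leukaemia with erythroid traits, and every sample comes from this 1 line. Nascent RNA was read by PRO-seq, in which engaged polymerases extend their transcripts with biotin-labelled nucleotides in permeabilised cells. Of the 2 libraries, 1 came from untreated cells and 1 from cells held in 0.1% DMSO, a drug solvent, for 1 h. With 1 library per treatment no difference has a replicate check, and every comparison below is between 2 libraries, not between treatments.

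p53 is a transcription factor that is stabilised after DNA damage and other stress, binds a 20-base response element made of 2 copies of a 10-base motif, and switches on genes for growth arrest, DNA repair, metabolism and cell death. MDM2, a ubiquitin ligase, and its relative MDM4 hold p53 in check, and MDM2 is itself a p53 target, so the pair forms a feedback loop. K562 is known to lack working p53, so that the levels of the target genes here are those reached without it. The comparison of the libraries asks how far transcription of these genes in a solvent control resembles that in untouched cells.

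Each value is a count of reads in a window of 6000 bases, 3000 to either side of the annotated gene start on hg38, and reads in bases that lie in more than 1 window are absent from the counts. What a gene's window holds in bases of its own therefore had to be settled first. Of the 9 windows 4 shared bases with another, as did 38.8% of all windows, and 3 of the 9 had under 1 kb of their own, against 23.7% of all. MDM2, MDM4 and ZMAT3 had all 6000 bases to themselves and hold the RefSeq start of the gene. PHLDA3 had 4091 bases of its own, with the start among them. The windows of TIGAR and GDF15 were also whole, but their genes' RefSeq starts lie 10451 and 8428 bases beyond the window. RRM2B kept 275 bases, SESN1 290 and CDKN1A none, and for these 3 genes the start itself lies in shared bases. The counts thus read the RefSeq start of 4 of the 9 genes.

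**Figure D1:**
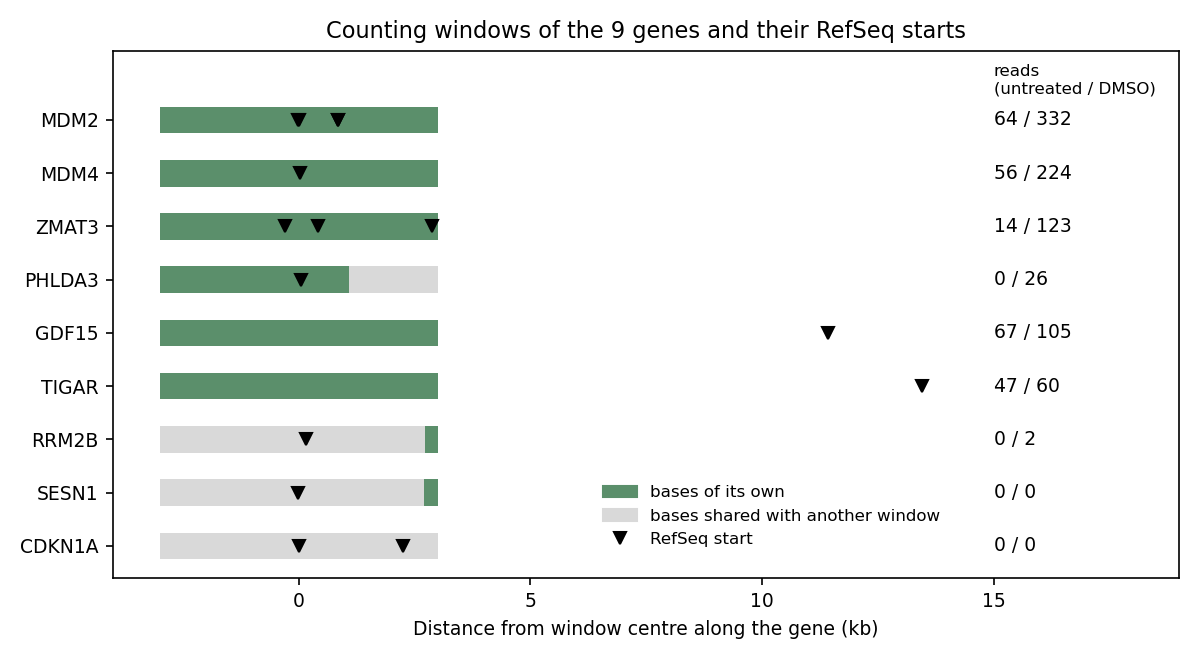
Counting windows of the 9 genes, in kb from the window centre along each gene, with bases of their own in green, bases shared with other windows in grey and RefSeq starts within 15 kb as triangles; reads of the untreated and DMSO libraries stand at the right. Only MDM2, MDM4, ZMAT3 and PHLDA3 have a start in green bases, and the starts of GDF15 and TIGAR lie outside their windows.

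Promoter sequences are shown for the feedback pair and for CDKN1A, with any match to the p53 response element marked. RefSeq promoter sequences (GRCh38.p14) were at hand for 7 of the 9 genes, at 13 starts in all; RRM2B, PHLDA3 and the outermost starts of CDKN1A and ZMAT3 were not searched. The p53 response element was searched by name in the 250 bases before each start, as its 20-base form without a spacer and with at most 2 mismatches; it reads the same on both strands. Such a match stood before 0.561% of all 35116 starts of the table. Of the 7 genes searched, MDM2 was the one with a match in these 250 bases. Elements further from a start, or past it, were not searched. MDM2 has 2 promoters, and all of its 4 starts in that table, which span 852 bases, lie in its window, so their reads are counted together. The sequences below are the upstream promoter of MDM2 (chr12:68807922-68808171, plus strand), its second promoter (chr12:68808767-68809016, plus strand), the promoter of MDM4 (chr1:204516156-204516405, plus strand) and that of CDKN1A (chr6:36678464-36678713, plus strand), each 5′ to 3′ up to the base before the start, with the element match in capitals.
MDM2 upstream: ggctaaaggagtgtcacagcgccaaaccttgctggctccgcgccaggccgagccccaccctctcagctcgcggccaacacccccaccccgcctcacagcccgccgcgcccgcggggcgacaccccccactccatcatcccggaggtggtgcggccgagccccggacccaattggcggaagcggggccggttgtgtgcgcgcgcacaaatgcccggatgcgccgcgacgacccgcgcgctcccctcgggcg
MDM2 second: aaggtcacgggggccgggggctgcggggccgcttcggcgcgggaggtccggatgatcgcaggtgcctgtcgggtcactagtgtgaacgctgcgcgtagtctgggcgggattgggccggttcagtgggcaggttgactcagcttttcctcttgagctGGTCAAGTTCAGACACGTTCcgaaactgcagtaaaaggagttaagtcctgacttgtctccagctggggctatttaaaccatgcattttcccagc
MDM4: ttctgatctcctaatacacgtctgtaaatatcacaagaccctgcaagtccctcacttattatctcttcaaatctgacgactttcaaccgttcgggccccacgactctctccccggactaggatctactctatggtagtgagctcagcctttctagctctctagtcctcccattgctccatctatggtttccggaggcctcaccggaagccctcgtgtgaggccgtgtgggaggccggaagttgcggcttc
CDKN1A: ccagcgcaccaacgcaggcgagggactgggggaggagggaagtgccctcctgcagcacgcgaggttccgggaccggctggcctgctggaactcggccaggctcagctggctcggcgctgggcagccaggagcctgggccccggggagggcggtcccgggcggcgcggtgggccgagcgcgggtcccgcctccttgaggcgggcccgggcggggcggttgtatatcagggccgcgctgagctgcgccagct
The match in the second MDM2 promoter, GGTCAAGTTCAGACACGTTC, begins 94 bases before the start at 68809017 and has 2 mismatches. The upstream MDM2 promoter and those of MDM4 and CDKN1A had at best 5 mismatches. CDKN1A held GGGCGG, the letters of an Sp1 box, 4 times in either orientation, against 42.6% of all starts with any match, and no match to TATAAA. Of the genes searched, GDF15 was the one with TATAAA, 29 bases before its start, as in 10.7% of all starts. A match is a run of letters and not evidence of binding.

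Read density in bases of its own placed MDM2 highest among the members whose start was read. MDM2 had 64 reads in the untreated and 332 in the DMSO library, or 4.99 CPM per kb (CPM, the count scaled to the library's total, here per kb of unshared bases; exact 95% Poisson interval 3.85 to 6.38) and 13.3 CPM per kb (11.9 to 14.8). These densities exceeded those of 91.3% and 92.8% of the windows with at least 1 kb of their own. MDM4 had 56 and 224 reads, or 4.37 CPM per kb (3.30 to 5.67) and 8.99 CPM per kb (7.85 to 10.2). In the untreated library the 2 genes could not be told apart, with a level ratio of MDM2 over MDM4 of 1.14 (exact 95% interval 0.786 to 1.67), while in the DMSO library MDM2 was 1.48 times denser (1.25 to 1.76). With totals that leave out the ribosomal and mitochondrial windows, densities were 20.3 and 24.6 CPM per kb for MDM2 and 17.8 and 16.6 CPM per kb for MDM4, so the order of the libraries at MDM4 turns with the total used. Comparisons of genes within a library are not touched by that choice.

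ZMAT3, an RNA-binding zinc finger protein and p53 target, had 14 and 123 reads. Its density was 1.09 CPM per kb (0.597 to 1.83) untreated and 4.93 CPM per kb (4.10 to 5.89) with DMSO. MDM4 was 4 times denser than ZMAT3 (2.2 to 7.78) in the untreated and 1.82 times (1.46 to 2.29) in the DMSO library, so that ZMAT3 came after MDM2 and MDM4 in both. PHLDA3, a p53 target that blocks AKT at the membrane, had 0 untreated and 26 DMSO reads in its 4091 bases. Its density with DMSO was 1.53 CPM per kb (0.999 to 2.24), below that of ZMAT3. For the untreated count of 0 the exact interval reaches 0.422 CPM per kb. All intervals cover counting error only.

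**Figure D2:**
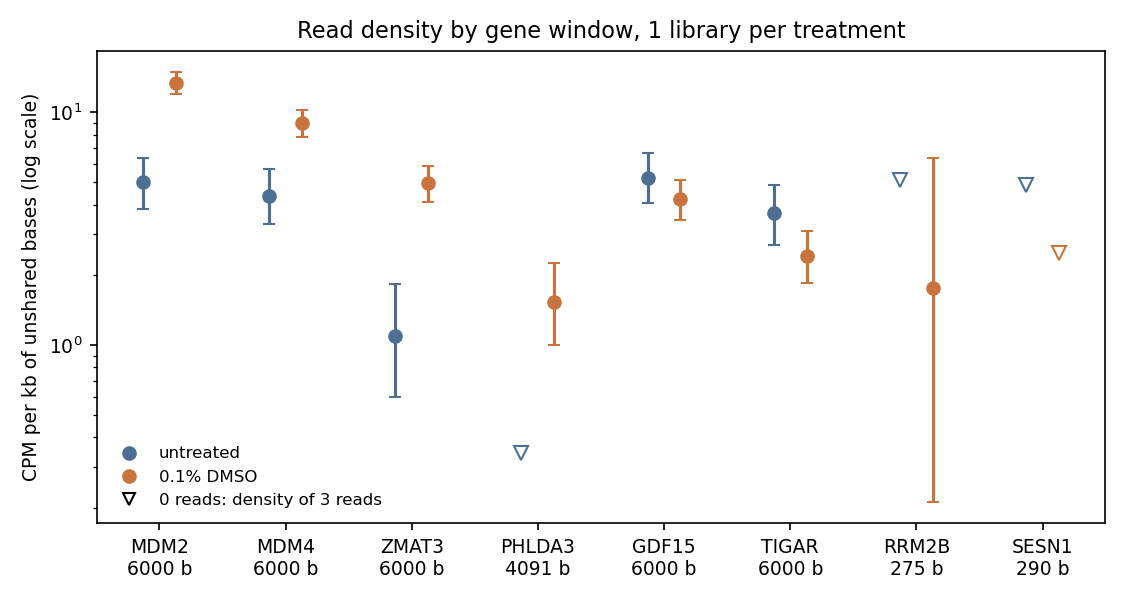
Read density of 8 members in CPM per kb of unshared bases on a log axis, with exact 95% Poisson intervals for the untreated (blue) and DMSO (orange) library. Open triangles are the density of 3 reads, drawn in place of a count of 0 and without an interval. The number of unshared bases stands under each name. MDM2 and MDM4 lie above ZMAT3 and PHLDA3 in both libraries, and CDKN1A is missing since it has no base of its own.

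The densities of GDF15 and TIGAR describe other stretches than their RefSeq promoters. The annotated starts on which these windows are centred lie 11427 and 13450 bases before the RefSeq starts. GDF15, a secreted stress cytokine, had 67 and 105 reads in a window at 18371731 to 18377730 of chromosome 19 that overlaps no RefSeq gene and lies 1781 bases past the end of PGPEP1, a peptidase gene. The density was 5.23 CPM per kb untreated and 4.21 CPM per kb with DMSO. TIGAR, which lowers fructose-2,6-bisphosphate and so slows glycolysis, had 47 and 60 reads in a window at 4304763 to 4310762 of chromosome 12, of which the first 591 bases belong to the 3′ end of the cyclin gene CCND2. Its density was 3.67 CPM per kb untreated and 2.41 CPM per kb with DMSO. These counts were not taken as levels of GDF15 or TIGAR.

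CDKN1A, the gene of the cell cycle inhibitor p21 and the best known target of p53, was listed at 0 in both libraries because all of its window is covered by those of 2 noncoding RNA genes, PANDAR and DINOL. Reads near it were counted under DINOL, a noncoding RNA gene read in the opposite direction. The 2100 bases that only the DINOL window covers run from 746 to 2845 bases past the CDKN1A start at 36678714 and lie inside CDKN1A, outside the RefSeq span of DINOL. They held 9 untreated and 44 DMSO reads, or 2.01 CPM per kb (0.917 to 3.81) and 5.04 CPM per kb (3.66 to 6.77). The 1333 bases of PANDAR's own, before the gene, held no read in either library. Since reads of either strand were lost where windows of opposite strands meet, it is not known on which strand these reads lie.

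At PHLDA3 a neighbouring window also fell inside the gene. The window of AC096677.2 has 4091 bases of its own, of which 1960 lie in the PHLDA3 gene, and held 1 untreated and 30 DMSO reads. Both windows together had 1 and 56 reads. SESN1, a sestrin that restrains mTORC1, had 0 reads in both libraries in 290 bases that begin 2737 bases inside the gene. There the exact interval of a count of 0 reaches 5.95 CPM per kb untreated and 3.06 CPM per kb with DMSO. RefSeq lists 2 more SESN1 starts 85268 and 85832 bases from the window centre, and these lie outside the window. RRM2B, a subunit of ribonucleotide reductase that supplies nucleotides for repair, had 0 and 2 reads in 275 bases that begin 2568 bases inside the gene. For its untreated count of 0 the exact interval reaches 6.28 CPM per kb. Both untreated limits lie above the untreated density of MDM2, so in that library a level like that of MDM2 could hardly be told from none. With DMSO the stretch of SESN1 and that of RRM2B, at 1.75 CPM per kb (0.212 to 6.32), lay below the 13.3 CPM per kb of the MDM2 window, though they read the body of the gene and not its start.

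**Figure D3:**
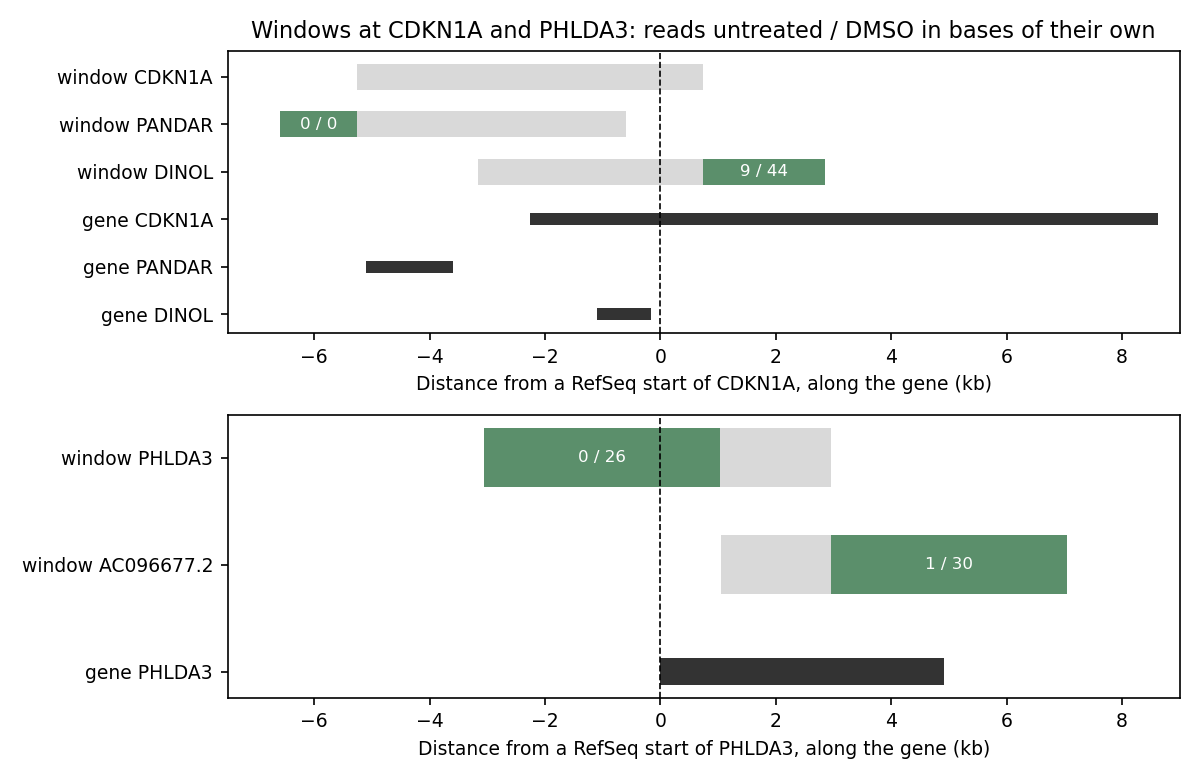
Counting windows (grey, with bases of their own in green and the reads there as untreated / DMSO) and RefSeq genes (black) around CDKN1A and PHLDA3, in kb from a RefSeq start of each gene. The whole CDKN1A window is grey, and the 9 and 44 reads of the DINOL window lie within the CDKN1A gene.

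Between the libraries, the 3 whole windows that hold their gene's RefSeq start differed less than 2-fold, though the interval of ZMAT3 reaches past 2-fold. The 2 whole windows that do not hold the start were both over 2-fold lower with DMSO. Ratios are DMSO over untreated on the TMM scale of edgeR, given in log2 and relative to the median of the 6591 windows with a mean of at least 5 CPM and 100 reads in both libraries together. The members past this floor were MDM2, MDM4, ZMAT3, TIGAR and GDF15. MDM2 stood at 0.14 (exact Clopper-Pearson interval -0.25 to 0.55) and MDM4 at -0.24 (-0.67 to 0.21). Both intervals hold 0, and the difference between the 2 genes was 0.37 (-0.23 to 0.97). ZMAT3 stood at 0.89 (0.10 to 1.81), with a ratio above that of 90.3% of the windows past the floor. It exceeded MDM4 by 1.13 (0.20 to 2.15) and MDM2 by 0.76 (-0.15 to 1.76), the latter within counting error. With the reads of MDM2, MDM4 and ZMAT3 summed, 134 untreated and 679 DMSO, the ratio was 0.10 (-0.17 to 0.38).

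GDF15 stood at -1.58 (-2.05 to -1.13) and TIGAR at -1.87 (-2.46 to -1.30), which is 3.00-fold and 3.66-fold lower with DMSO. Only 1.93% and 1.02% of the windows past the floor had lower ratios. The 2 did not differ from each other beyond counting error, with a difference of 0.29 (-0.45 to 1.04). The window of PGPEP1, the gene that ends before the GDF15 window, had 65 and 215 reads and stood at -0.51, and that of CCND2 has no base of its own. In all, 2 of the 5 members past the floor were at least 2-fold lower and 0 at least 2-fold higher, against 7.97% and 7.04% of all windows past the floor, and their median was -0.24. The member counts rest on so few windows that they are not read against these shares. Among windows that hold the RefSeq start the count of lower members is 0 of 3.

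PHLDA3 did not reach the floor. With 3 reads in place of the untreated 0 it was 1.84-fold higher with DMSO. The exact interval begins lower, at a log2 ratio of 0.48. A count of 0 has an exact upper limit of 3.69 reads rather than 3, and the DMSO reads carry counting error too. Together with AC096677.2 the log2 ratio was 3.32 (1.03 to 8.90). Of the 126 windows with the same 26 DMSO reads, 11 (8.73%) had no untreated read, and their median was 6. The DINOL window, inside CDKN1A, stood at 0.04 with an interval of -1.0 to 1.27. The ratio of RRM2B rests on 2 reads and is not given.

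**Figure D4:**
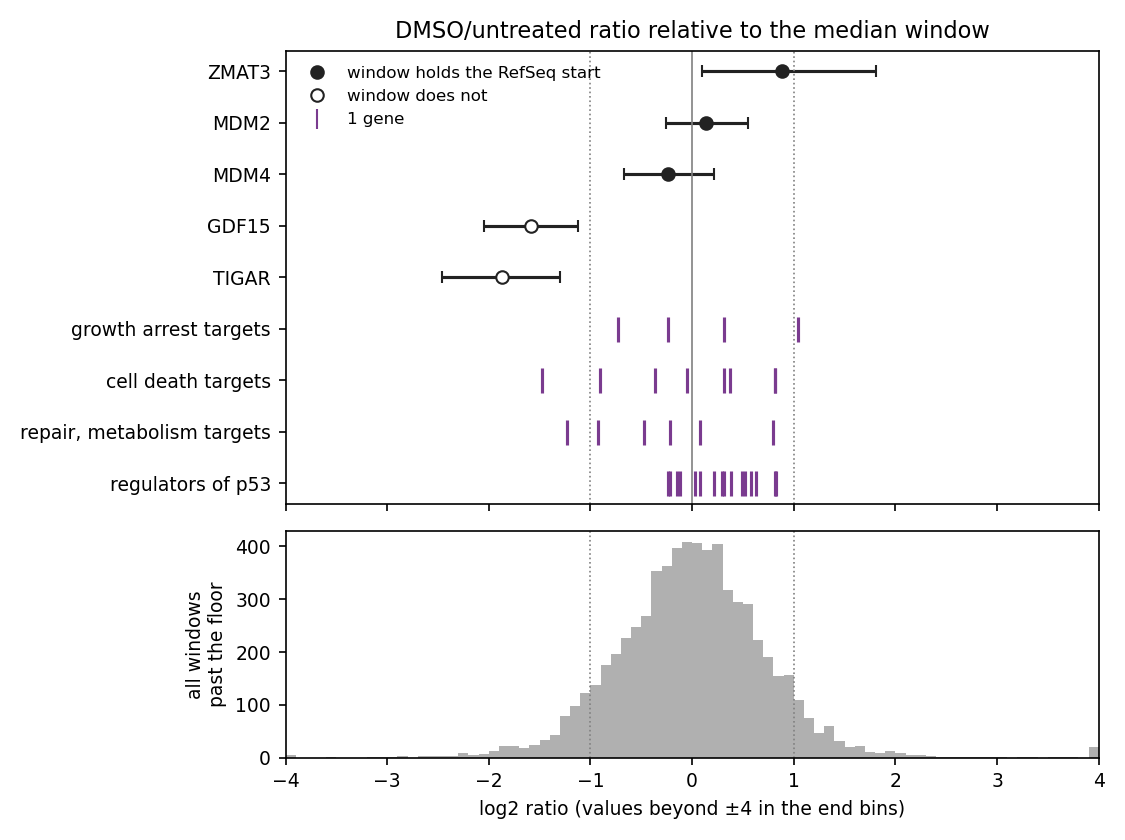
Upper panel, log2 DMSO/untreated ratio relative to the median window for the 5 members past the floor with exact 95% intervals for counting error, and for each gene past the floor of the lists described next; lower panel, the same ratio for all 6591 windows past the floor. Dotted lines mark 2-fold; GDF15 and TIGAR, drawn open because their windows lack the RefSeq start, are the 2 members beyond the lower line.

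Genes of the wider pathway were read in the same way. TP63 and TP73 encode relatives of p53. TP63 had 5 and 4 reads in a whole window, and the TP73 window 11 and 78 reads in 246 bases. These bases lie before the RefSeq start of TP73 and past that of WRAP73, which is read in the opposite direction from 3650103. The TP73 start itself lies in bases shared with the WRAP73 window, so the reads were not taken as a level of TP73. CDKN2A, whose ARF product inhibits MDM2, had 0 reads in both libraries, but its window has no base of its own, and K562 is known to lack this gene.

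Reads were also counted for other textbook p53 targets. Of 44 such genes, 20 reached 1 CPM in both libraries, against 34.7% of all windows. So did 5 of the 9 members, among them GDF15 and TIGAR, whose windows do not hold the RefSeq start. Of the 44 genes, 15 had under 1 kb of their own. Past the floor were 18, with a median ratio of -0.13, of which 2 were at least 2-fold lower and 1 at least 2-fold higher, against 7.97% and 7.04% of all windows past the floor. Among growth arrest genes GADD45A, a stress sensor, had 287 and 816 reads (-0.73), and the kinase gene PLK3 34 and 332 (1.04), the highest ratio of these targets. Among cell death genes EI24, a membrane protein gene, had 60 and 366 reads (0.37) and BID, a BH3-only protein gene, 19 and 159 (0.82). BBC3, which encodes the BH3-only protein PUMA, had 77 and 130 reads (-1.48), the lowest ratio. Of the repair and metabolism genes SESN2, a relative of SESN1, had 266 and 534 reads (-1.23), FDXR, a mitochondrial reductase gene, 62 and 211 (-0.47), and ALDH4A1, of proline breakdown, 22 and 181 (0.80).

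Of 30 regulators of p53, 19 reached 1 CPM in both libraries and 16 passed the floor, against 34.7% and 17.9% of all windows. Of the 30, 11 had under 1 kb of their own and 5 had no read in either library. Ratios past the floor ran from -0.23 to 0.82, with a median of 0.30. None was past 2-fold in either direction, against 15% of all windows past the floor. CHEK1, a checkpoint kinase gene, had 112 and 556 reads (0.07), and RPL11, a ribosomal protein gene whose product binds MDM2, 98 and 567 (0.29). USP10, a deubiquitinase that acts on p53, stood highest at 0.82 and RPL23, another ribosomal protein gene whose product binds MDM2, lowest at -0.23. MDM2, at 0.14, lay within this range. MDM4, at -0.238, lay just below its lowest value of -0.234, a gap well within counting error.

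Genes of some other programmes also differed between the libraries. Of 12 genes of the amino acid and integrated stress response, SESN2 among them, 6 passed the floor, with a median of -2.17. Of these 6, 5 were at least 2-fold lower with DMSO, against 7.97% of all windows past the floor. SESN2 and BBC3 are known to respond to that pathway as well as to p53. Of 17 neural markers, 12 had DMSO reads and no untreated read, and 1 had none at all. Of all 36814 windows 18390 had no untreated read, 7529 of them with no DMSO read either. DMSO reads alone were also seen at 6 of 12 granulocytic, monocytic and lymphoid markers, and at 3 of 8 epithelial, fibroblast and liver ones. The neural list summed to 15 untreated and 1186 DMSO reads. The 16 erythroid markers summed to 1439 and 4435 reads, with 14 at 1 CPM or more in both libraries, against 34.7% of all windows. The 12 granulocytic, monocytic and lymphoid ones summed to 75 and 320, and the 8 epithelial, fibroblast and liver ones to 8 and 32. These sums are not scaled, and at the ratio of the median window past the floor 26 DMSO reads match 5.51 untreated reads. Past the floor the median ratio was -0.45 for 9 erythroid markers and -0.35 for 2 granulocytic, monocytic and lymphoid ones. The part of these differences between the libraries in the ratios of SESN2, BBC3, PHLDA3 and the GDF15 window was not tested. The libraries held 2136291 and 4154920 reads, of which 525322 and 2249790 lay outside ribosomal RNA and mitochondrial windows, so the CPM values of a gene do not by themselves compare the libraries.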

How the data were processed

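The authors' deposited table gives raw read counts of 2 PRO-seq libraries per window; per the submitters' processing notes, reads were aligned with Bowtie2 2.3.5 to hg38 and counted with featureCounts 2.0.1. The deposited TPM equalled the CPM computed from the counts in all 36814 windows (tolerance 1e-06), so CPM were used. No read fell in any of the 1154 windows wholly covered by others, whatever their strand. RefSeq starts came from the GRCh38.p14 tables; 23364 windows matched a symbol or synonym, of which 9.27% did not hold the start.

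Counts were scaled with TMM factors (edgeR 4.0.16, R 4.3.3) on the whole table, with a prior count of 0.5. These factors gave 3.81 DMSO reads per untreated read before the median log2 ratio past the floor, 0.31, was subtracted. Intervals are exact at 95%; reads carry no molecular identifiers, so intervals cover counting error only, and no test was possible with 1 library per treatment. The ratio was tested on simulated data. The members and lists were chosen with earlier results of these data known. All members were named, and from each further list the 2 of highest mean CPM and the extreme ratios past the floor, of which some are not reported here. Gene likeness was not ranked over 2 libraries. Alternatives covered scaling, centring, floor, prior, thinning, overlap, window position and fold.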

Additional observations from a re-analysis of the deposited data

Results flagged for a closer look

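The 4 windows over 45S ribosomal RNA repeats took 71.5% of all untreated reads and 42.2% of those with DMSO. They count in the library totals behind each CPM value and the floor. Outlying samples and differences between groups could not be assessed with 1 library each.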

How the results depend on the processing

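No paired analysis was possible because the untreated and DMSO arms hold 1 library apiece; none could be left out. The ratios of GDF15, MDM4, TIGAR and ZMAT3 stayed within their counting intervals wherever the window passed the floor (GDF15 -1.98 to -1.27, MDM4 -0.63 to 0.07, TIGAR -2.27 to -1.56, ZMAT3 0.49 to 1.19), and MDM2 did so but for -0.26 with any read. Members at least 2-fold lower (2) numbered 0 after thinning, where TIGAR and GDF15 did not reach the floor, and 0 among windows that hold the RefSeq start. Members at least 2-fold higher (0) numbered 1 on the TMM scale without centring, 1 with a floor of 1 CPM, 2 with any read, and 1 at 1.5-fold. For the other targets the lower count (2) was 1 without centring, 1 at 20 CPM and 400 reads, 1 after thinning, 13 with any read, 4 among windows holding the start and 5 at 1.5-fold; the higher count (1) was 4 without centring, 0 at 20 CPM, 8 with any read, 0 with the start, 2 at 1 CPM and 4 at 1.5-fold. Their median (-0.13) was -0.85 at 20 CPM over 3 genes, 0.17 without centring and 0.06 with a floor of 1 CPM. The members' median (-0.24) was 0.07 without centring, 0.06 with a floor of 1 CPM and 0.01 among windows holding the start. The sign of both medians thus turns with the setting. Under the remaining settings each stayed negative wherever windows passed the floor. Without centring 3.37% of all windows past the floor were lower and 15% higher. Fewer or more windows enter under other floors and after thinning. Keeping windows that hold the start left 18 other targets and moved the median subtracted from 0.31 to 0.43. The cause of the other shifts was not tested. Few reads limit PHLDA3, and few bases of their own RRM2B and SESN1.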
